A study of Homo sapiens with 6 samples.

Results

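Extracellular proteases and their inhibitors were examined in PANC-1, a line of human pancreatic cancer cells long kept in culture, after knockdown of ZDHHC20, a palmitoyl acyltransferase. The 44 genes were a list of names, drawn up with earlier results of these data known: matrix metalloproteinases (MMPs), ADAM and ADAMTS proteases, the plasminogen system, secreted proteases and the inhibitors of these enzymes. Of these, 40 had a row in the table of 27394 genes, and 38 had a mean of at least 1 and were tested among 22189 genes. MMP3, MMP10, MMP13 and SERPINB5 had no row in the table used here. ADAMTS5 and ADAMTS9 had means below 1 and were not tested: ADAMTS5 was listed at 0 except in shZDHHC20 replicate 3, at 1.92, and ADAMTS9 was at most 2.02.

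The study compared 3 libraries of cells given a control shRNA (shControl) with 3 libraries of cells given an shRNA against ZDHHC20 (shZDHHC20). These names are those of the sample titles, while the headers of the deposited values read NC and siZDHHC20. Delivery was by transfection and infection in the labels, and no other allele or agent is named for either group. The labels do not name the hairpin, whether the cells were 1 clone, or whether the replicates were separate cultures, so the p-values measure the spread between these libraries, which may be technical. With 1 knockdown group, an effect of losing ZDHHC20 and an effect of the hairpin on other transcripts cannot be told apart.

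Secreted MMPs are made as inactive precursors, most of which are switched on outside the cell. The membrane-type MMPs (MMP14, MMP15, MMP16, MMP17 and MMP24) act at the cell surface. TIMPs block MMPs, and TIMP2 also bridges the precursor of MMP2 to MMP14, which cleaves it. ADAM proteases release the outer parts of membrane proteins, ADAMTS proteases cut proteoglycans and procollagens, and the urokinase PLAU, bound to its receptor PLAUR, turns plasminogen into plasmin. In pancreatic cancer these enzymes are known for remodelling the matrix around invading cells.

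The values are normalized counts, gene counts divided by a size factor per library. They summed to between 17083277 and 18007664, and the relative depths read from the steps of the values ran from 93.1% to 103.5%. ZDHHC20 was at 2001, 2033 and 1940 in the control libraries, in the order of replicates 1 to 3 that is kept throughout, and at 872, 779 and 893 after knockdown, which is 42.6% of the control mean. shZDHHC20 replicate 2 stood apart: over 4136 abundant genes the SD of its log2 difference from the other shZDHHC20 libraries was 0.178 and 0.198, against 0.0674 to 0.0722 for the other pairs within a group. The ductal keratins KRT8 (50364 to 56688), KRT18 (16129 to 19943) and KRT19 (5771 to 6364) were abundant, while the ductal marker CFTR was without a row. Of the fibroblast markers, COL1A1 was between 3113 and 3958 and LUM, PDGFRB and ACTA2 were at most 5.77. The fibroblast list, of which 6 of 10 genes had a row, summed to between 3995 and 4064 in the control and between 3204 and 3494 after knockdown. Most of this sum was COL1A1, so it does not describe the list as a whole. COL3A1 had means of 76.4 and 86.2 and THY1 of 24.5 and 13.9 in the control and knockdown groups, and neither was called. COL1A1 itself fell (log2 fold change -0.27, adjusted p = 0.00288, limma), and the part of such a shift in the results on matrix proteases was not tested. The leukocyte list summed to between 38.2 and 74.2 and the endothelial list to between 32.9 and 59.6 in every library.

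With ZDHHC20 knockdown, 7 of the 38 tested genes fell and none rose at an adjusted p under 0.05 (limma). The 7 were the proteases MMP2, MMP17, PLAU, HTRA1 and ADAMTS14 and the inhibitors TIMP1 and TIMP2. In such bulk libraries, fewer expressing cells and less RNA per cell cannot be told apart. Without shZDHHC20 replicate 2, the library that stood apart, 9 genes fell, these 7 with ADAM15 and BMP1, in a fit whose calls over all genes were 19.2% in either direction and 10.7% lower. Over all 22189 genes the same test called 11.5%, with 4.61% higher and 6.84% lower. Abundant genes were called more often: where the mean reached 100, 21.7% of all genes were called and 8.41% were higher and 13.3% lower, and of the 18 proteases and inhibitors at that level 6 were called, all of them lower. At an unadjusted p under 0.05, 3 further genes were higher (MMP7, MMP15 and ADAMTS6) and 4 further genes lower (ADAM15, ADAM17, PLAUR and BMP1). That made 3 of 38 higher and 11 of 38 lower, where 11.2% and 12.6% of all genes passed. The median log2 fold change was -0.16 over the 38 genes and 0.01 over all genes tested. Leaving out single libraries moved the median of the 38 from -0.000800 (without shControl replicate 3) to -0.21 (without shControl replicate 2). Without the mean-variance trend of limma, MMP2 and PLAU remained among the called genes and the other 5 were lost, in a fit that called 351 of all genes.

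**Figure D1:**
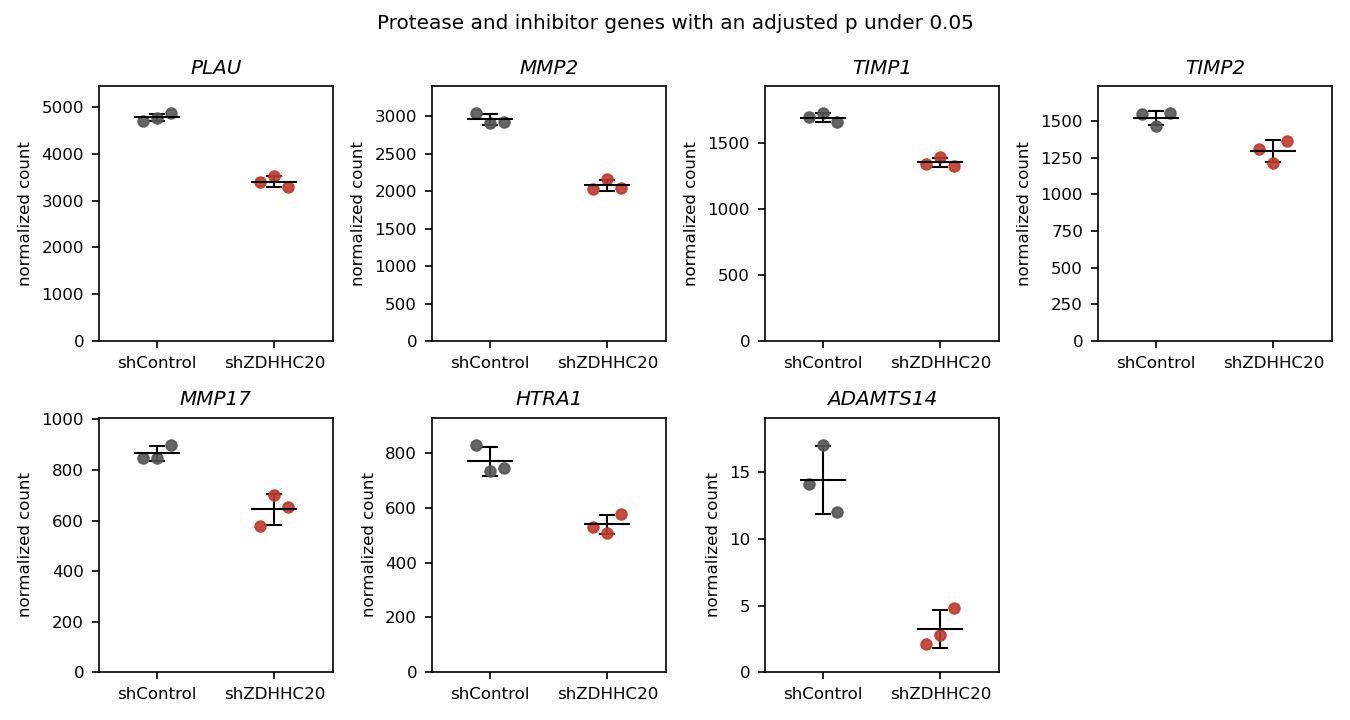
Normalized counts (vertical axes, from 0) of the 7 genes with an adjusted p under 0.05, by group. Points are the 3 libraries of a group, the wide mark is the mean and the bars are 1 SD; in each gene every shZDHHC20 library lies below every shControl library, from PLAU at 4783 against 3406 to ADAMTS14 at 14.4 against 3.25.

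The groups of libraries did not overlap in 15 of the 38 genes, 11 of them with all shZDHHC20 libraries lower and 4 with all higher. Among all genes tested this held for 28.6%, with 14.8% lower and 13.8% higher. At the criteria used in the study, a p under 0.01 (read here as unadjusted) and a fold of at least 1.5, 1 of the 38 genes remained, ADAMTS14, and 2.45% of all genes passed. The mean of ADAMTS14 over the 6 libraries was 8.83.

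The 7 genes that fell lie on 5 chromosomes. Besides MMP2 and PLAU these are HTRA1 (chr10:122458551-122514908), ADAMTS14 (chr10:70672803-70762441), MMP17 (chr12:131828393-131851783), TIMP2 (chr17:78852977-78925387) and TIMP1 (chrX:47582313-47586789), all in GENCODE 29 on GRCh38. The deposited table holds no coordinates, and its own build is named as hg19. Of the 5 tested genes on chromosome 10, 3 fell, but ADAMTS14 and PLAU are 3147 kb apart. Over all chromosomes 6.84% of the genes tested fell, or 13.3% at a mean of at least 100, and the share on chromosome 10 was not counted. MMP7 and MMP1, which belong to the MMP cluster of chromosome 11, are 259 kb apart and neither was called.

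RefSeq promoter windows, 250 bases before to 50 after the start on GRCh38.p14, were found for 26 of the 44 genes, and for 4 of the 7 that fell. The 140 bases before the start are shown for TIMP1 (chrX:47582296-47582435, plus strand), HTRA1 (chr10:122461413-122461552, plus strand) and ADAMTS14 (chr10:70672366-70672505, plus strand), as genes that fell, and for MMP7 (chr11:102530748-102530887, minus strand), as a scarce gene that was not called and whose stretch holds other motifs. Each reads 5′ to 3′ along its gene, and capitals mark matches, on either strand, to the GC box GGGCGG, the AP-1 motif TGANTCA, the TATA motif TATAAA or the ETS motif AGGAAG.
TIMP1: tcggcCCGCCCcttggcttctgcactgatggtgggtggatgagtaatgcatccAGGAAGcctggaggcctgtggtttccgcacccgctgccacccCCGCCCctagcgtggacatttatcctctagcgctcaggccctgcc
HTRA1: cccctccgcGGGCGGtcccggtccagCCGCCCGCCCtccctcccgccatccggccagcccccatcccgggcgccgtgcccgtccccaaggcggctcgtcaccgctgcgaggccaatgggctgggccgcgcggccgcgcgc
ADAMTS14: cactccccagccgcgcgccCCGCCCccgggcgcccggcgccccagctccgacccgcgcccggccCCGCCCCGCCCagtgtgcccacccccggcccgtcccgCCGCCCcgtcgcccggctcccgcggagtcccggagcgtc
MMP7: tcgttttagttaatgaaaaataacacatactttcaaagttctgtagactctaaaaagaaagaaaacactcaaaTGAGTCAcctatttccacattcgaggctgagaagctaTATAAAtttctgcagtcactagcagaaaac
PLAU, the other gene that fell and had a window, is not shown: none of the motifs was found in its window, whose GC content is 48.7%. The stretches of the 3 genes that fell and are shown hold GC boxes, 2 of which overlap each other in HTRA1 and in ADAMTS14, and their GC content is 64.3%, 82.9% and 87.9%. That of MMP7 holds an AP-1 motif that starts at -67 and a TATA motif that starts at -30, at a GC content of 32.9%. MMP7 does not stand for the genes with higher values after knockdown, since the windows of MMP15 and TIMP3, where all knockdown libraries were higher, hold 5 GC boxes each at a GC content of 75.3% and 72.7%.

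In the whole windows, the GC box was found in 19 of the 24 tested genes that had one, in 3 of 4 that fell and in 44.6% of all 27305 promoters. The AP-1 motif was found in 3 of the 24 (MMP7, ADAMTS12 and PLAUR), in 0 of the 4 and in 7.76% of all promoters. The E-box CACGTG, the motif of MYC and related factors, was in 2 of the 24 (ADAMTS6 and SERPINE2), in 0 of the 4 and in 7.43% of all promoters. The TATA motif was in 2 of the 24 and 12% of all, and the ETS motif in 8 of the 24 and 33.7% of all. These counts describe full matches of letters in short windows. Near matches, such as tgagtaa in the TIMP1 stretch to TGANTCA, were not counted.

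MMP2, gelatinase A, which degrades basement membrane collagen, had normalized counts of 3043, 2907 and 2931 in the control and of 2028, 2168 and 2043 after knockdown. The means were 2960 ± 72.5 and 2080 ± 77.2 (SD, n = 3 each), or -0.51 as a log2 fold change (SE 0.0517, adjusted p = 3.84e-05, limma). The groups did not overlap, and the knockdown mean was 70.3% of the control mean. It was called in each of the 14 alternatives, with a log2 fold change between -0.54 and -0.48. MMP2 lies at chr16:55389700-55506691 (GENCODE 29, GRCh38).

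MMP17, a membrane-type enzyme held by a lipid anchor, was at 848, 849 and 899 in the shControl libraries and at 579, 702 and 652 in the shZDHHC20 libraries. The highest knockdown library was below the lowest control library, and the log2 fold change came to -0.43 (SE 0.0788, adjusted p = 0.00321, limma). The other membrane-type enzymes did not follow it past the threshold. MMP15 was at 818, 667 and 793 in the control and at 827, 894 and 1007 after knockdown, with all knockdown libraries higher and a log2 fold change of 0.26 (95% interval 0.06 to 0.46, adjusted p = 0.0906, limma). MMP14, the activator of MMP2, was at 202 ± 28.2 and 210 ± 29.6 (SD, n = 3), with overlapping libraries and a 95% interval of the log2 fold change from -0.23 to 0.35. For MMP16 that interval was -0.28 to 0.12 and for MMP24 -0.53 to 0.51, but MMP24 shares exon bases with MMP24OS on the other strand, whose mean was 622 against 58.2.

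The remaining MMPs were scarce. MMP7, matrilysin, was at 8.08, 12.1 and 21.0 in the shControl libraries and at 29.7, 20.7 and 32.7 in the shZDHHC20 libraries, a log2 fold change of 1.09 (95% interval 0.23 to 1.95) with an adjusted p of 0.106 (limma). The groups touched, since 1 control library exceeded the lowest knockdown library. MMP11 had means of 34.8 and 38.2, MMP1 of 9.06 and 4.96, MMP19 of 7.70 and 4.70 and MMP9 of 3.01 and 1.65 in the control and knockdown groups, and none of these 4 was called. MMP9, MMP11 and MMP19 overlap more abundant genes on the other strand. These genes are SLC12A5-AS1 at a mean of 8.07, CHCHD10 at 475 and TMEM198B at 157. The values of MMP9, MMP11 and MMP19 are therefore uncertain unless strand was used in counting.

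TIMP1, a secreted inhibitor of many MMPs, was at 1699, 1728 and 1659 in the shControl libraries and at 1347, 1395 and 1326 in the shZDHHC20 libraries. The groups lay well apart, with means of 1695 ± 34.8 and 1356 ± 35.1 (SD, n = 3), and the log2 fold change came to -0.32 (SE 0.0547, adjusted p = 0.00189, limma). TIMP2 was at 1551, 1468 and 1554 in the control and at 1310, 1212 and 1363 after knockdown. Its groups did not overlap either, with a log2 fold change of -0.24 (SE 0.0618, adjusted p = 0.025, limma), but the call was lost without any 1 of shControl replicates 1, 2 and 3 (adjusted p of 0.134, 0.0698 and 0.138) or without shZDHHC20 replicate 1 (0.0882). RECK, a membrane-anchored inhibitor of MMPs, had means of 516 ± 34.9 and 530 ± 22.7 (SD, n = 3), with a 95% interval of -0.13 to 0.21 on the log2 scale. TIMP3, which binds to the matrix, was listed at 0, 0 and 1.0 in the control and at 1.06, 2.82 and 4.81 after knockdown, too low for a fold (adjusted p = 0.231, limma).

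PLAU, the urokinase-type plasminogen activator, had the highest level per length of the 40 genes in both groups. Its normalized counts were 4713, 4769 and 4867 in the shControl libraries and 3402, 3524 and 3291 in the shZDHHC20 libraries. The means were 4783 ± 78.0 and 3406 ± 116 (SD, n = 3), or -0.49 as a log2 fold change (SE 0.0472, adjusted p = 2.69e-05, limma), and the gene was called in each of the 14 alternatives. It lies at chr10:73909177-73917497 (GENCODE 29, GRCh38), and C10orf55, which overlaps it on the other strand, had a mean of 24.2, or 0.591% of that of PLAU. PLAUR, its receptor, was at 104, 103 and 82.1 in the control and at 81.6, 33.8 and 79.9 after knockdown, so that most of the difference lay in replicate 2, the library that stood apart. Its adjusted p was 0.17 (limma). Without that replicate its log2 fold change was -0.25, against -0.67 with it. PLAT, the tissue-type activator, was listed at 0, 11.0 and 10.0 and then at 6.36, 1.88 and 0.962, and SERPINE2, a serpin that inhibits both activators, was at 75.8, 74.3 and 105 in the control and at 81.6, 69.5 and 78.0 after knockdown, with neither called. The fitted log2 fold change of PLAT was 0.09 although its mean was lower after knockdown, at 3.07 against 7.02, with 1 control library listed at 0.

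HTRA1, a secreted serine protease, was at 829, 733 and 744 in the shControl libraries and at 531, 508 and 577 in the shZDHHC20 libraries. The means were 769 ± 52.3 and 539 ± 35.3 (SD, n = 3), or -0.51 as a log2 fold change (SE 0.0784, adjusted p = 0.000909, limma). BMP1, which trims procollagen, was at 197, 203 and 207 in the control and at 143, 194 and 168 after knockdown. Its knockdown libraries were all lower but widely spread, and its adjusted p was 0.206 (limma), or 0.0357 without replicate 2 of that group.

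**Figure D2:**
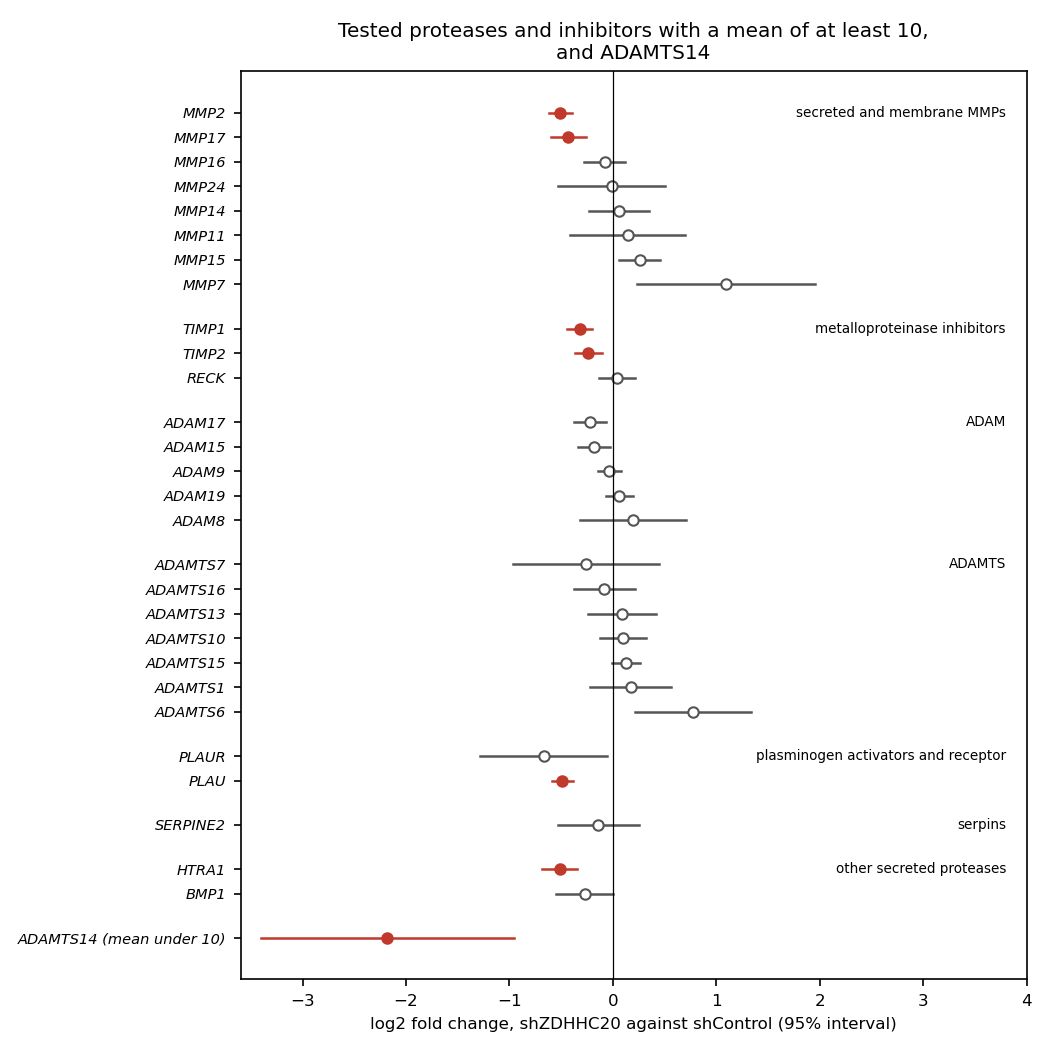
Log2 fold change of shZDHHC20 against shControl with its 95% interval (limma) for the tested genes with a mean of at least 10, by sub-list, and for ADAMTS14. Red filled points have an adjusted p under 0.05; these lie between -0.51 and -0.24 except for ADAMTS14 at -2.18, and the open points lie on both sides of 0, up to 1.09 for MMP7.

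None of the 7 ADAM genes was called, and 2 of them, ADAM15 and ADAM17, had an unadjusted p under 0.05. ADAM9, the most abundant of them per length, was at 4268, 4235 and 4598 in the control and at 4325, 4075 and 4373 after knockdown. Its libraries were mixed, and the 95% interval of its log2 fold change, -0.15 to 0.07, bounds any difference closely. ADAM17, the sheddase of tumor necrosis factor and of several ligands of the epidermal growth factor receptor, was at 810, 840 and 779 and then at 688, 652 and 741. Every knockdown library was below every control library, but the adjusted p was 0.0622 (log2 fold change -0.22, limma), and ADAM17 shares exon bases with IAH1 on the other strand, whose mean was 487. ADAM15 was at 1039 ± 58.4 and 915 ± 64.7 (SD, n = 3, adjusted p = 0.131, limma). ADAM19 had a 95% interval of -0.07 to 0.19, ADAM8 means of 57.9 and 65.2, and ADAM12 and ADAM23 means of at most 5.71.

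Of the 10 ADAMTS genes tested, ADAMTS14 alone was called. This enzyme, which trims the amino end of procollagen, was at 14.1, 17.1 and 12 in the control and at 2.12, 2.82 and 4.81 after knockdown. The means were 14.4 ± 2.54 and 3.25 ± 1.40 (SD, n = 3), or -2.18 as a log2 fold change (SE 0.568, adjusted p = 0.0247, limma). Over the 6 libraries the mean of ADAMTS14 was 8.83, and means under 10 allow no firm statement at this depth. The call was lost without any 1 of shControl replicates 1, 2 and 3 (adjusted p of 0.109, 0.12 and 0.0874), without shZDHHC20 replicate 1 (0.0773) and without the mean-variance trend (0.0619), while the log2 fold change stayed between -2.50 and -1.90. ADAMTS15, a proteoglycan-degrading member, made up 85.0% of the summed ADAMTS level per length in the control. It was at 2974, 2715 and 3097 in the control and at 3107, 3470 and 3018 after knockdown, with overlapping groups (95% interval -0.01 to 0.27).

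ADAMTS6 was at 26.3, 22.1 and 24.0 in the control and at 37.1, 36.6 and 52.0 after knockdown, with all knockdown libraries higher (log2 fold change 0.78, 95% interval 0.22 to 1.34, adjusted p = 0.0759, limma). ADAMTS10 also had all 3 knockdown libraries higher, but by little, at 187 ± 4.79 and 200 ± 2.96 (SD, n = 3). The other 6 tested ADAMTS genes had mean normalized counts between 3.27 (ADAMTS12 after knockdown) and 137 (ADAMTS16 in the control), and their adjusted p was from 0.571 to 0.802 (limma).

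Levels of different genes were compared per 1000 exonic bases of the GENCODE models, which join the exons of all isoforms and so understate genes with long minor forms. In the control the order was PLAU (1621), TIMP1 (1100), ADAM9 (632), MMP2 (600.0), ADAMTS15 (516), HTRA1 (337), TIMP2 (271), MMP17 (216), MMP15 (172) and ADAM19 (167). Of these 10 genes, all with a mean of at least 500, 6 fell, where 15.4% of all genes with such a mean did. The 10 were taken by control level per length, not by that mean. ADAM15, ADAM17 and RECK also had such a mean over the 6 libraries (977, 752 and 523), and none of them was called. The summed level of the 11 MMPs with a row was 1096 ± 40.8 in the control and 900 ± 44.7 after knockdown (SD, n = 3), of which MMP2 made up 54.7% and 46.9%. The summed level of TIMP1, TIMP2, TIMP3 and RECK was 1456 ± 11.7 and 1198 ± 7.09 (SD, n = 3), so that the knockdown sum was 82.1% of the control for the MMPs and 82.3% for these inhibitors. For the 7 ADAM genes it was 96.4% and for the 12 ADAMTS genes 108%. These sums are descriptions and were not tested.

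**Figure D3:**
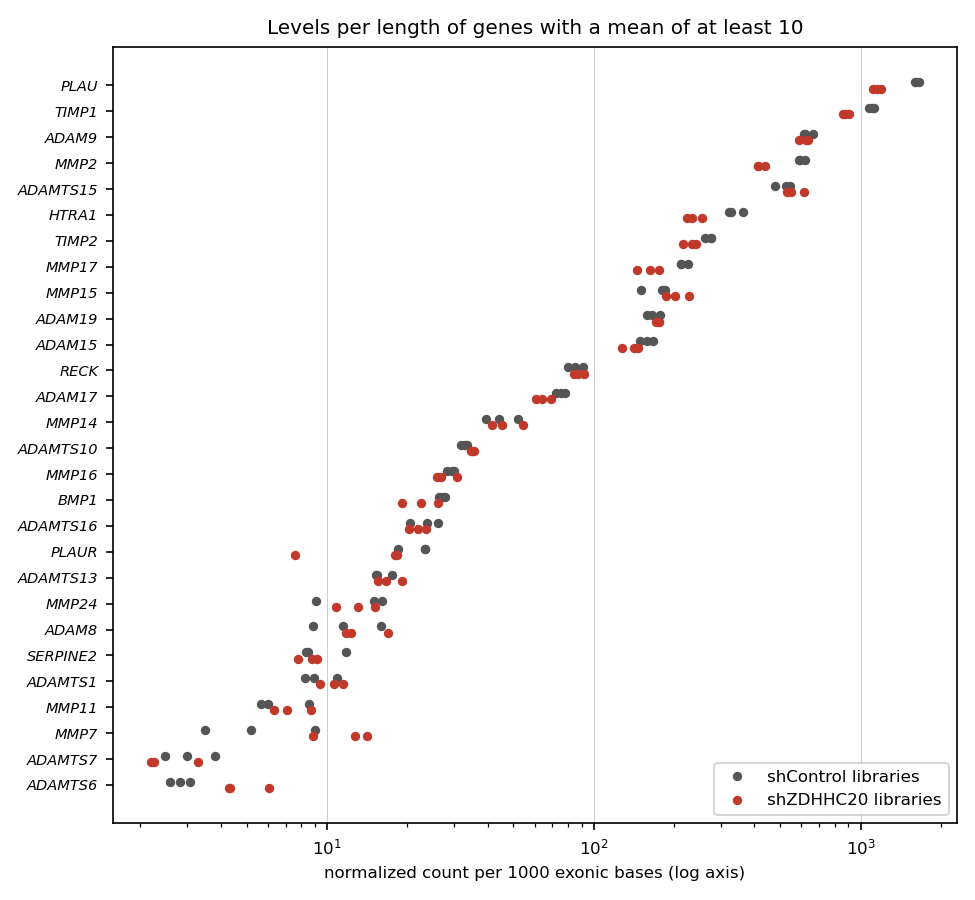
Normalized counts per 1000 exonic bases (log axis) in each library for genes whose mean reached 10, ordered by the control mean. Grey points are shControl and red points shZDHHC20 libraries; levels run from 1621 for PLAU to 2.82 for ADAMTS6 in the control, and 1 shZDHHC20 library of PLAUR stands to the left of the others.

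Ratios of a pair of genes within a library do not depend on the scaling of that library, and 5 such ratios of levels per length, chosen after the values were seen, were compared. MMP2 against its inhibitor TIMP2 was at 2.24, 2.26 and 2.15 in the control and at 1.77, 2.04 and 1.71 after knockdown, and MMP2 against MMP14 at 11.8, 14.9 and 13.5 and then at 9.06, 8.07 and 9.95. Both ratios were lower in all 3 knockdown libraries. MMP2 against TIMP1 went from 0.546 ± 0.018 to 0.479 ± 0.00801 and MMP17 against MMP15 from 1.27 ± 0.131 to 0.785 ± 0.0772 (SD, n = 3). These 4 ratios had no overlap between groups (two-sided exact permutation test, p = 0.1, adjusted over the 5 ratios p = 0.125), and 0.1 is the smallest p that 3 libraries against 3 allow. The adjustment does not cover the choice of these pairs after their values were seen, so these p-values only describe the separation. PLAU against PLAUR was at 68.4, 69.6 and 89.6 and then at 63.0, 157 and 62.3, with overlap (exact permutation p = 1).

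**Figure D4:**
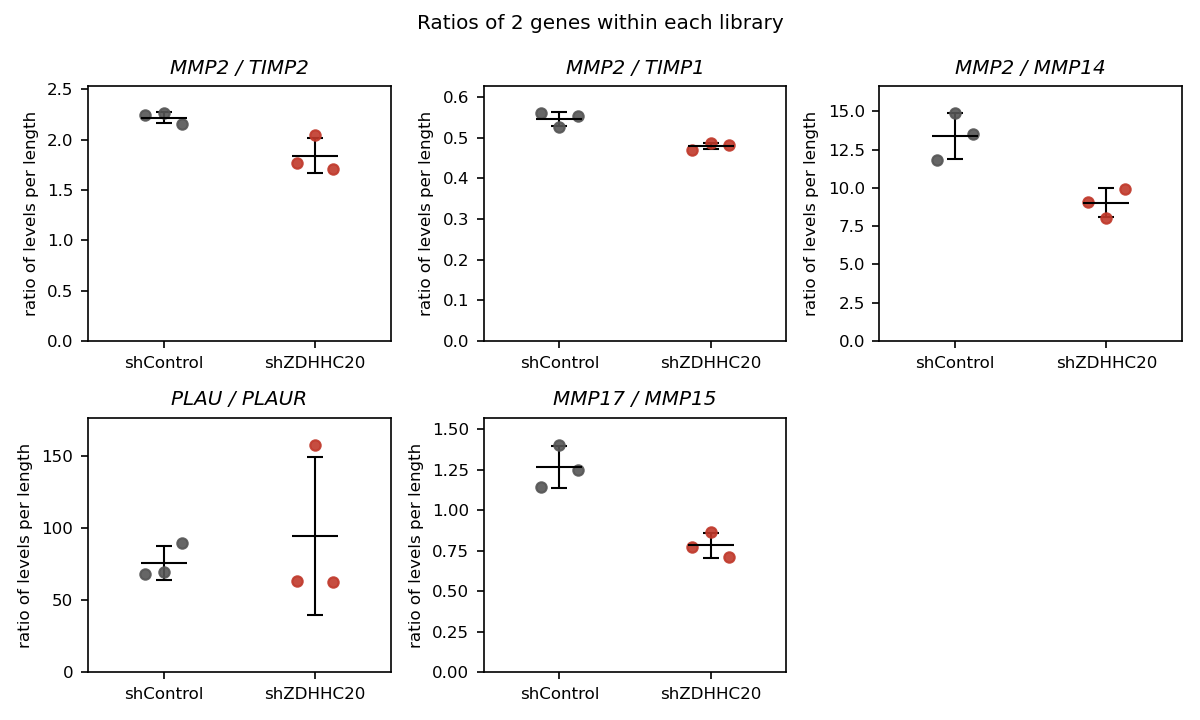
Ratios of levels per length of 5 pairs of genes within each library (vertical axes, from 0), by group. Points are libraries, the wide mark is the mean and bars are 1 SD; 4 ratios are lower in all shZDHHC20 libraries, and PLAU / PLAUR overlaps because shZDHHC20 replicate 2 is at 157.

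Other genes of the pathway were followed in 8 lists of 176 genes, of which 133 were tested, and 10 rose and 23 fell at an adjusted p under 0.05 (limma). That is 24.8% of them, beside 11.5% of all genes. At a mean of at least 100 it was 31 of 82, or 37.8%, beside 21.7%, and no test of this difference was made. The 8 lists were drawn up with earlier results of these data known, so these shares depend on that choice. Among the 18 transcription factors known to act on MMP genes, 6 fell and 2 rose, beside 13.3% and 8.41% of all genes with a mean of at least 100. ETS1 fell from 2950 ± 33.0 to 1932 ± 103 (log2 fold change -0.61), while ETS2 rose from 2696 ± 70.8 to 3668 ± 76.1 (SD, n = 3, log2 fold change 0.44, adjusted p of 1.47e-05 and 6.33e-05, limma). The 2 related factors thus moved in opposite directions in all 3 libraries.

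Among 12 tested partners of the plasminogen system, 3 fell and 1 rose, or 33.3% called. Over all genes tested 11.5% were called, and 21.7% at a mean of at least 100. LRP1, the endocytic receptor that clears complexes of proteases and inhibitors, fell from 2163 ± 14.6 to 1407 ± 47.0 (SD, n = 3, log2 fold change -0.62, adjusted p = 1.29e-05, limma). The 1 that rose was PLG, plasminogen itself, at means of 3.01 and 12.4 (adjusted p = 0.0375, limma, but 0.0600 to 0.113 when any 1 of the 6 libraries was left out), and it is named here after its values were seen. Among 18 other inhibitors tested, 3 rose and 3 fell, also 33.3%, beside the same 11.5% and 21.7%. CST3, the cathepsin inhibitor cystatin C, fell from 2091 ± 48.7 to 1281 ± 57.5, and SPINT1, which inhibits hepatocyte growth factor activator and matriptase, rose from 317 ± 14.3 to 592 ± 31.8 (SD, n = 3, adjusted p of 7.81e-06 and 1.75e-05, limma).

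Of 21 tested substrates of ADAM17 and ADAM10, 4 rose and 3 fell, beside 4.61% and 6.84% of all genes, or 8.41% and 13.3% at a mean of at least 100. The receptors AXL and NOTCH2 fell, from 6628 ± 99.2 to 4907 ± 338 and from 5096 ± 56.5 to 3761 ± 259 (SD, n = 3, adjusted p of 0.000163 and 0.000178, limma). The 4 that rose, named after their values were seen, were the growth factors AREG (log2 fold change 1.01) and EREG (0.45), the receptor IL6R (0.57) and the syndecan SDC4 (0.27), whose call was lost without shControl replicate 1 or 3 (adjusted p of 0.0585 and 0.0607, limma).

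Of 20 tested convertases and cofactors that activate these proteases, 2 fell and none rose (limma), or 10% beside 11.5% of all genes. They were TSPAN5, a tetraspanin that carries ADAM10, which fell from 1354 ± 27.5 to 1089 ± 29.5, and BSG, an inducer of MMPs, which fell from 11318 ± 337 to 9993 ± 406 (SD, n = 3, adjusted p of 0.00312 and 0.0212). BSG was called in 6 of 14 alternatives: its log2 fold change of -0.18 was -0.11 under quantile normalization (adjusted p = 0.235, limma), and the call was lost without any 1 library except shZDHHC20 replicate 2 (0.0642 to 0.153). Of 10 tested ADAMTS-like proteins and matrix regulators 3 fell, or 30%, led by SFRP1 (log2 fold change -0.35) and ADAMTSL4 (-0.46). The call of SFRP1 was lost without shControl replicate 1 or 2 (adjusted p of 0.0635 and 0.0788, limma), and that of ADAMTSL4 without any 1 library except shZDHHC20 replicate 2 (0.0514 to 0.130). Of 14 cathepsins and related proteases 2 fell, LGMN (-0.47) and CTSA (-0.35), or 14.3% beside the same 11.5%. Of 20 tested further members of the MMP, ADAM and ADAMTS families, 1 was called, or 5%. This was ADAM22, an ADAM without protease activity, which fell from 389 ± 35.6 to 266 ± 0.890 (SD, n = 3, adjusted p = 0.00199, limma). Overlapping and antisense genes were not looked up for the genes of these 8 lists.

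**Figure D5:**
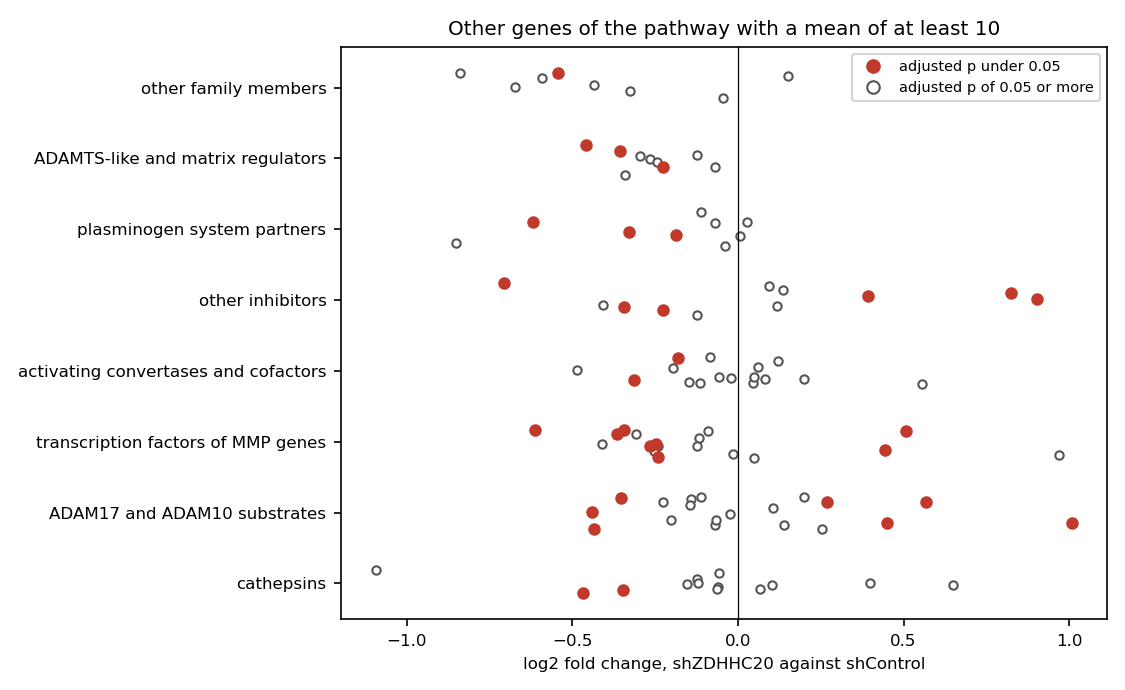
Log2 fold change (horizontal axis) of shZDHHC20 against shControl for the other genes of the pathway with a mean of at least 10, 1 row per list, with points spread vertically only for display. Red points have an adjusted p under 0.05; they lie on both sides of 0 in the lists of inhibitors, transcription factors and substrates, from -0.71 for CST3 to 1.01 for AREG, and below 0 in the other lists.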

How the data were processed

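RNA-seq was performed on 3 shControl and 3 shZDHHC20 libraries of PANC-1 cells, prepared from total RNA with a strand-specific kit. The authors deposited 1 table of 27394 genes by Ensembl identifier, with 1 value per library. Its name says FPKM, yet 100% of each library's deposited values lay within 0.05 of a whole multiple of its smallest value above 0. They were therefore treated as a normalized signal, counts divided by a size factor, and are called normalized counts. The submitters' processing notes name hg19. The aligner, the counting tool and its use of strand, the annotation and the normalization are not given in the sources used here. No count test was run, although such alternatives were planned.

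Symbols came from the reference table (27175 identifiers matched) and for the rest from GENCODE 29 (GRCh38), the source of positions, overlapping genes and exonic lengths. Genes whose mean over the 6 libraries reached 1 were tested on log2(value + 0.1) with limma 3.58.1 in R 4.3.3, with a mean-variance trend, two-sided, and Benjamini-Hochberg adjustment over all genes tested. The threshold was an adjusted p under 0.05. Single ratios were compared by exact permutation of the libraries. Promoter windows came from RefSeq on GRCh38.p14. Figures were drawn in Python 3.11.15 with matplotlib 3.10.9. The fit was checked on made-up data with known changes.

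The members and gene lists were chosen with earlier results of these data known. The genes named are ZDHHC20, all listed members and, from each further list, the 2 genes with the smallest adjusted p under 0.05. Values in every library are given for members past the threshold and for the member of each sub-list with the highest level per length. Values in every library are also given for 8 members outside this rule (MMP15, MMP7, TIMP3, PLAUR, PLAT, BMP1, ADAM17 and ADAMTS6), chosen after their values were seen, and some items are not reported here. Alternatives changed the pseudocount (to 1 or 0.01), the filter (none, or a mean reaching 5), the scaling (median ratios or quantiles), the mean-variance trend (dropped), the replicate number (as a block) and the libraries (each left out once). Without read totals, no interval for counting error can be given.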

Additional observations from a re-analysis of the deposited data

How the results depend on the processing

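The direction and the call of ZDHHC20, MMP2 and PLAU held in the 14 alternatives run. Without the mean-variance trend the number of genes called fell from 2541 to 351, of proteases and inhibitors called from 7 to 2 (all lower), and of other pathway genes called from 33 to 7. Leaving out 1 library gave between 1036 (shControl replicate 1) and 4268 (shZDHHC20 replicate 2) genes, between 5 and 9 proteases and inhibitors called (all lower), and between 18 and 49 other pathway genes. The median log2 fold change of the proteases and inhibitors, -0.16, was -0.204 with a pseudocount of 1, -0.0815 with a mean of at least 5, and between -0.213 and -0.000800 with 1 library left out. Genes at the study's criteria numbered 1, but 2 with a mean of at least 5 or without the trend, and 0 to 2 with 1 library left out. ADAM9 and SERPINE2, neither called, turned to 0.00126 and 0.0216 on the log2 scale without shControl replicate 3, and reached -0.0579 and -0.228 without shControl replicate 2. Quantile normalization changed the split of all calls from 1024 higher and 1517 lower to 1165 and 1266, and left the 7 proteases and inhibitors called.

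With the replicate block 1942 genes and the same 7 proteases and inhibitors were called. Of the other pathway genes 28 remained called, with BSG and PLG among those lost (adjusted p of 0.0670 and 0.0680, limma). The correlation of deviations between same-numbered libraries was -0.0223, -0.0136 and 0.00127 over all genes. At a mean over 100 it was -0.0948, -0.156 and -0.0771, and between libraries of unlike number from -0.0918 to 0.154. These values do not show pairing by number, but with 3 libraries per group they cannot exclude it. The planned count-based tests were not run. Genes with means under 10, 10 of the 38 tested, allow no firm statement at this depth.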
